A study of Mus musculus with 24 samples.

Results

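The genes described here build and serve the cilium of the photoreceptor. They comprise 46 symbols chosen by name. These are the BBSome and its partners, the transition zone and connecting cilium, intraflagellar transport (IFT), its motors, a carrier group, and the ciliary proteins Mak and Tulp3. The carrier group serves lipid-modified proteins and holds the carrier Unc119 with Arl3, Arl13b and Rp2, which are not carriers but act on the release of its cargo. Of the 46, 45 were found among the 31346 nuclear genes counted, and all 45 passed the filter on low counts in every comparison. Bbs12, a chaperonin-like gene, is not analysed here.

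The measurements come from bulk RNA sequencing of 24 whole mouse retinas, 1 retina per mouse, with females and males balanced in every group. All 3 rd10 groups carry a missense change in Pde6b, which encodes part of the phosphodiesterase of rods, on a C57BL/6J background. Their rods degenerate, more slowly in darkness, and WT retinas are C57BL/6J. The rd10 TMB mice (n = 8) and the rd10 vehicle mice (n = 8) were reared in darkness and entered cyclic light on postnatal day 29. From day 28 the rd10 TMB mice ate chow with tamsulosin, metoprolol and bromocriptine (an alpha-1 blocker, a beta-1 blocker and a dopamine agonist), while the rd10 vehicle mice, the rd10 DR mice and the WT mice ate the base chow. The rd10 DR mice (n = 4) stayed in darkness until collection, and the WT mice (n = 4) were housed as the light-exposed rd10 mice were. The sources give the age at collection as day 36 or 37 for rd10 TMB, rd10 vehicle and WT, and as day 28 or 30 for rd10 DR. The rd10 DR group therefore differs from the others in age as well as in light, and these cannot be told apart. The day before collection the rd10 TMB and rd10 vehicle mice also had an electroretinogram, and the rd10 DR and WT mice anaesthesia alone.

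In a photoreceptor, every protein of the light-sensing outer segment is made in the inner segment and passes through a narrow bridge, the connecting cilium, which corresponds to the transition zone of other cilia. Trains of IFT particles move along its microtubules, outward on kinesin-II with the IFT-B complex and back on dynein-2 with the IFT-A complex. The BBSome, a coat of BBS proteins, takes membrane proteins out of the cilium, and lipid-binding carriers bring lipid-modified phototransduction proteins to it. Most retinal neurons and glia also bear a primary cilium, so these genes are not exclusive to rods, and many of them are mutated in retinitis pigmentosa, Leber congenital amaurosis or Bardet-Biedl syndrome.

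Levels are CPM, that is counts relative to 1e+06 per library after TMM scaling of the libraries, which held 56799680 to 86471014 nuclear counts each. CPM is not divided by gene length, so levels are compared between groups and not between genes. Each pair of groups was tested over all genes by edgeR (quasi-likelihood F test), and a gene is said to be higher or lower where its Benjamini-Hochberg adjusted p was under 0.05. The rod marker genes show how far the groups differ in rod transcripts. Their summed level over 19 of 19 genes was 23156 to 46917 CPM in rd10 TMB retinas, 9890.3 to 30373 CPM in rd10 vehicle retinas, 58443 to 64446 CPM in rd10 DR retinas and 98047 to 111936 CPM in WT retinas. In whole retinas, fewer rods and less RNA per rod cannot be told apart. Markers of glia, cones and pigment epithelium are given as well, and their part in the cilium gene levels was not tested.

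Most cilium genes were lower in light-exposed rd10 retinas than in WT. In rd10 vehicle retinas compared with WT, 35 of 45 were lower and 3 higher, where 30.2% of all 20763 genes tested were lower and 31.6% higher. The median log2 fold change of the 45 was -0.64, against 0.015 over all genes tested and -2.33 over the 19 rod markers, all of which were lower. The carrier group (median -1.41), the BBSome with its GTPase (median -1.07) and the transition zone (median -0.79) stood at the low end, and the IFT-B genes had a median of -0.21. Of the 4 motors 2 were lower and 1 higher. Differences between roles were not tested. The losses of Fam161a, Rpgrip1, Arl13b and Unc119 exceeded 3-fold, while Ift46, Ift140, Ahi1 and Iqcb1 had estimates between -0.02 and 0.09 that did not pass the test. Summed over the 45 genes, the level was 55.5% of the WT mean in rd10 TMB retinas, 45% in rd10 vehicle retinas and 78.1% in rd10 DR retinas, beside rod marker sums of 32.5%, 18.6% and 59.3%. Unc119 and Rpgrip1, both among the steepest losses, weigh most in this sum. Their WT means were 2162 and 1826 CPM, where the sum was 8015 to 9474 CPM in WT retinas. The percentages therefore follow these genes more than the others.

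**Figure D1:**
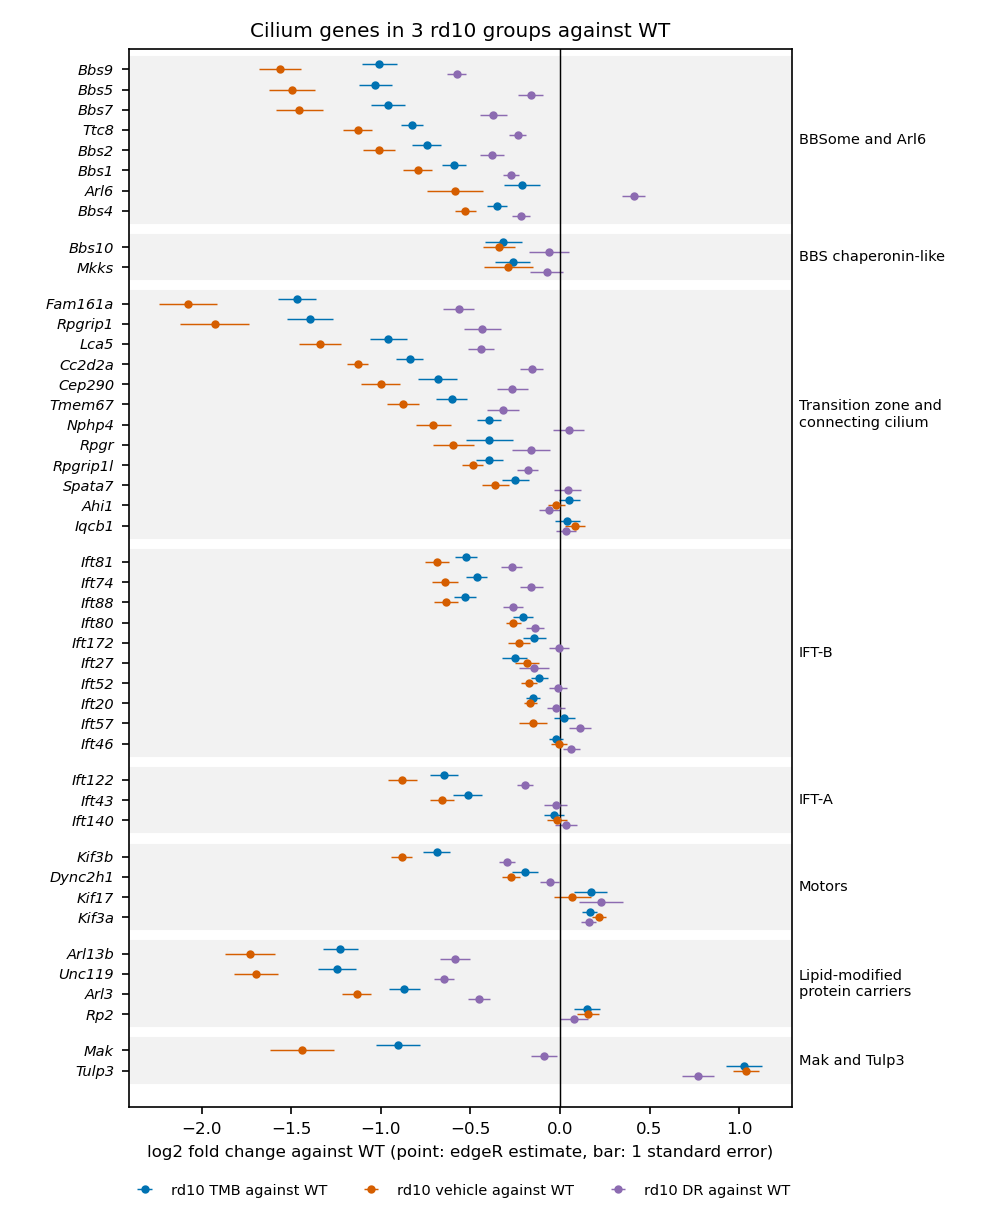
Log2 fold change against WT (x axis) of the 45 cilium genes, grouped by role and ordered by the rd10 vehicle value (y axis), for rd10 TMB, rd10 vehicle and rd10 DR. Points are edgeR estimates and bars are 1 standard error. The 7 BBSome genes, and Arl13b, Unc119 and Arl3 of the carrier group, lie left of 0 in all 3 rd10 groups. Tulp3 and Kif3a lie right of 0 in all 3.

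To show what sequence the genes share near their starts, promoter windows of 250 bases before and 50 after a start site were taken from RefSeq (GRCm38.p6). They were matched for 42 of the 46 symbols, giving 52 windows, and not for Ift122, Tmem67, Ift81 and Ift80. The letters GTTGCC, one arm of the X-box bound by the RFX factors that switch on cilium genes, were found on either strand in 16 of the 52 windows (30.8%), in 15 genes, and in 12.5% of all 32851 windows. A whole X-box with 0 to 3 letters between its arms, searched after the data were seen, was in 4 windows (7.69%; 1.53% of all windows), those of Kif17, Ahi1, Ift57 and Bbs1, and the X-box as written for the worm was in 0 of 52 (0.962% of all). The CRX letters TAATCC, which mark many photoreceptor promoters, were in 4 windows (7.69%; 7.06% of all), and the NRL half-site letters TGCTGA were in 9 (17.3%; 19.5% of all). The GTTGCC letters lay in the windows of 4 of the 8 IFT-B genes with a window and 3 of 4 motors. TAATCC lay in those of Unc119, Mak, Rpgrip1 and Bbs1, all lower in rd10 vehicle retinas than in WT. Most genes with a window were lower there: 31 were lower, 3 higher and 7 not called. GTTGCC was in 10 of the 31, 1 of the 3 and 4 of the 7. A tie between letters and calls was not tested. A match is a description of letters and not a bound site. The stretches below hold such a match before the start site and overlap no annotated exon. They are shown for a carrier, a kinase and a BBSome gene among the losses (in capitals, TAATCC or the same letters read on the other strand).
Unc119 (chr11:78345439-78345498, plus strand): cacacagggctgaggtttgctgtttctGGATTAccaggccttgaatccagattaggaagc
Mak (chr13:41070651-41070710, minus strand): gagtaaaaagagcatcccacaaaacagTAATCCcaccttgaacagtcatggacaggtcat
Bbs1 (chr19:4906792-4906851, minus strand): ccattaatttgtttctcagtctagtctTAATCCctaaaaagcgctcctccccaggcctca
The next set has GTTGCC in capitals, or the same letters read on the other strand, from 2 genes that were lower in rd10 vehicle retinas (Arl13b and Bbs7) and 1 that did not pass the test (Ift140).
Arl13b (chr16:62847189-62847248, minus strand): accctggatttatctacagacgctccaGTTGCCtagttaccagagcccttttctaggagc
Bbs7 (chr3:36613478-36613537, minus strand): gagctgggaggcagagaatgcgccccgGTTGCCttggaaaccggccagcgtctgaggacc
Ift140 (chr17:25015950-25016009, plus strand): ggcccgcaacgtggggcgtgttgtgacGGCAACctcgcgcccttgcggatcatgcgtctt
In Kif17, a motor gene not called in any comparison under TMM scaling, the whole X-box is in capitals.
Kif17 (chr4:138262151-138262217, plus strand): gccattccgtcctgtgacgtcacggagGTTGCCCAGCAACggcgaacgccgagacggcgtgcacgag
The Kif17, Unc119 and Mak stretches lie inside the gene as GENCODE M21 draws it, before an inner start site, and the others lie upstream of the gene. Among the RFX genes themselves, Rfx1 was lower in rd10 vehicle retinas than in WT (log2 fold change -0.81, adjusted p = 1.4e-05), Rfx3 was slightly lower (-0.22, adjusted p = 0.0082), and Rfx2 was higher in rd10 DR than in WT (1.78, adjusted p = 3.7e-07) and in rd10 vehicle than in WT (0.56, adjusted p = 0.035).

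The transition zone and connecting cilium group held the steepest losses, with 10 of 12 genes lower and 0 higher in rd10 vehicle retinas. Fam161a (chr11:23007531-23030788, plus strand) encodes a microtubule-associated protein of the connecting cilium wall that is mutated in retinitis pigmentosa. It had 98.1 to 149 CPM (median 132) in the 8 rd10 TMB retinas, 53.5 to 106 CPM (median 86.9) in the 8 rd10 vehicle retinas, 246, 209, 227 and 254 CPM in the rd10 DR retinas, and 350.2, 397, 291 and 365 CPM in the WT retinas. All rd10 retinas lay below all WT retinas, and the light-exposed ones lay below the rd10 DR ones as well. Against WT, Fam161a stood at 36.1% of the WT mean in rd10 TMB (log2 fold change -1.47 ± 0.11 (SE), adjusted p = 1.6e-07), 23.7% in rd10 vehicle (log2 fold change -2.08 ± 0.16 (SE), adjusted p = 1.3e-07) and 66.6% in rd10 DR (log2 fold change -0.57 ± 0.09 (SE), adjusted p = 0.00088). Rpgrip1 (chr14:52110704-52163546, plus strand) encodes the protein that anchors Rpgr in the connecting cilium. Its levels were 529 to 859 CPM (median 668) in the 8 rd10 TMB retinas, 311 to 671 CPM (median 496) in the 8 rd10 vehicle retinas, 1429, 1217, 1235 and 1456 CPM in the rd10 DR retinas, and 1805, 2177, 1453 and 1871 CPM in the WT retinas. The light-exposed rd10 retinas did not overlap WT, whereas the rd10 DR retinas did. The log2 fold changes against WT were -1.40 ± 0.13 in rd10 TMB, -1.93 ± 0.19 in rd10 vehicle and -0.43 ± 0.10 in rd10 DR (adjusted p = 8.2e-07, 8.8e-07 and 0.01). In 1 fit over all 4 groups the rd10 DR call was lost (adjusted p = 0.11). Of the exon bases of Rpgrip1, 8.7% are shared with Supt16 on the opposite strand, and the unstranded libraries cannot separate reads there.

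Rpgrip1l, the widely expressed relative of Rpgrip1, had smaller estimates. It had 24.8 to 32.8 CPM (median 28.1) in the 8 rd10 TMB retinas, 24.1 to 29.3 CPM (median 26.9) in the 8 rd10 vehicle retinas, 33.3, 30.5, 34.9 and 32.4 CPM in the rd10 DR retinas, and 38.4, 37.8, 34.7 and 39.4 CPM in the WT retinas. Light-exposed rd10 retinas lay below WT without overlap, with fold changes of -0.40 ± 0.07 in rd10 TMB and -0.49 ± 0.06 in rd10 vehicle on the log2 scale (adjusted p = 0.00046 and 6.6e-06). The ratio of Rpgrip1 to Rpgrip1l counts within a retina, which no scaling between libraries can alter, was 24.3 ± 3.46 in rd10 TMB, 17.9 ± 4.96 in rd10 vehicle (SD, n = 8 each), 40.8 ± 4.14 in rd10 DR and 48.5 ± 6.58 in WT (SD, n = 4 each). The light-exposed rd10 retinas lay between 11.2 and 27.9, all below the other 8 retinas, the lowest of which had 35.4.

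Lca5, which encodes lebercilin, an IFT-binding protein of the ciliary microtubules, and Cc2d2a, Cep290 and Tmem67, which build the transition zone gate, followed in order of loss. Their log2 fold changes in rd10 vehicle against WT were -1.34 ± 0.12, -1.13 ± 0.06, -1.0 ± 0.11 and -0.88 ± 0.09 (adjusted p at most 1.9e-06). Cc2d2a had 85.1 to 113 CPM (median 97.2) in the 8 rd10 TMB retinas, 75.6 to 87.96 CPM (median 84.6) in the 8 rd10 vehicle retinas, 172, 147, 156 and 163 CPM in the rd10 DR retinas, and 182, 199, 161 and 181 CPM in the WT retinas. Its rd10 DR and WT levels overlapped, and the 16 light-exposed rd10 retinas lay below all 8 others. For Tmem67 the levels were 20.7 to 27.4 CPM (median 24.8) in the 8 rd10 TMB retinas, 17.6 to 22.7 CPM (median 20.2) in the 8 rd10 vehicle retinas, 27.4, 28.4, 30.6 and 30.4 CPM in the rd10 DR retinas, and 34.8, 42.3, 30.8 and 39.8 CPM in the WT retinas. Here the rd10 DR retinas lay just under the WT ones. Nphp4, a nephrocystin of the gate, had 27.9 to 36.9 CPM (median 32.98) in the 8 rd10 TMB retinas, 19.97 to 31.8 CPM (median 26.4) in the 8 rd10 vehicle retinas, 47.7, 48.7, 35.5 and 45.2 CPM in the rd10 DR retinas, and 44.9, 44.4, 41.2 and 43.1 CPM in the WT retinas. Nphp4 was lower in rd10 TMB (-0.40 ± 0.07) and rd10 vehicle (-0.71 ± 0.10) than in WT, and its rd10 DR estimate of 0.05 ± 0.09 did not pass the test (adjusted p = 0.73). Rpgr and Spata7, both connecting cilium genes mutated in retinal dystrophy, were lower in rd10 vehicle (log2 fold changes -0.60 ± 0.11 and -0.36 ± 0.07), while Ahi1 and Iqcb1 gave -0.02 ± 0.05 and 0.09 ± 0.06 (adjusted p = 0.73 and 0.19). Without TMM scaling Ahi1 turned to 0.18 (adjusted p = 0.0037), so no direction can be given for it, Iqcb1 gained a higher call (0.29, adjusted p = 0.00056), and Spata7 was no longer called.

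**Figure D2:**
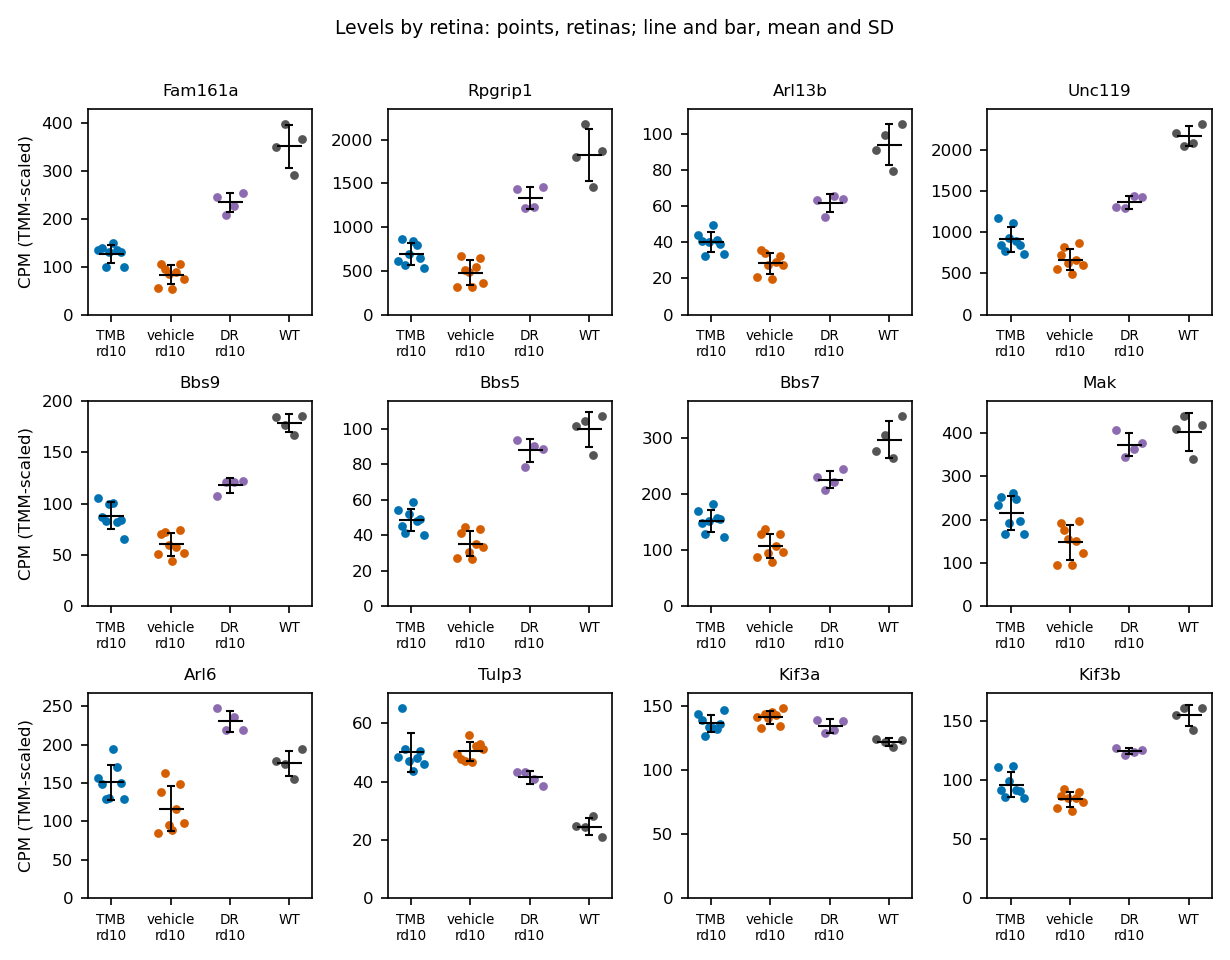
CPM after TMM scaling (y axis, from 0) of 12 cilium genes in rd10 TMB, rd10 vehicle, rd10 DR and WT retinas (x axis). Each point is 1 retina, and the line and bar give the mean and SD. Fam161a, Rpgrip1, Arl13b, Unc119, Bbs9, Bbs5, Bbs7 and Mak are lowest in rd10 vehicle and highest in WT, Arl6 is highest in rd10 DR, and Tulp3 is at its lowest in WT.

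All 7 BBSome genes and Arl6, the GTPase that recruits the coat to membranes, were lower in rd10 vehicle retinas than in WT. Bbs9 (chr9:22475715-22888280, plus strand), a scaffold subunit, had 65.2 to 105 CPM (median 85.9) in the 8 rd10 TMB retinas, 43.9 to 74.3 CPM (median 59.04) in the 8 rd10 vehicle retinas, 107, 121, 121 and 122 CPM in the rd10 DR retinas, and 184, 177, 167 and 185 CPM in the WT retinas. No rd10 group overlapped WT, and the rd10 vehicle and rd10 DR ranges were separate. Bbs9 stood at 49.6% of the WT mean in rd10 TMB, 33.8% in rd10 vehicle and 66.2% in rd10 DR, with log2 fold changes of -1.01 ± 0.10, -1.56 ± 0.12 and -0.58 ± 0.05 (adjusted p = 1.2e-06, 9.4e-08 and 4.6e-05). Bbs5 (chr2:69647171-69667571, plus strand), a subunit that binds phosphoinositides, had 40.1 to 58.5 CPM (median 48.7) in the 8 rd10 TMB retinas, 26.5 to 44.5 CPM (median 34.2) in the 8 rd10 vehicle retinas, 93.5, 78.6, 90.4 and 88.5 CPM in the rd10 DR retinas, and 102, 104, 85.4 and 107 CPM in the WT retinas. Its rd10 DR retinas mixed with WT, while the light-exposed ones were all lower (log2 fold change -1.03 ± 0.09 (SE), adjusted p = 5.9e-07 in rd10 TMB; log2 fold change -1.50 ± 0.13 (SE), adjusted p = 2.6e-07 in rd10 vehicle). In Bbs7 (chr3:36573142-36613477, minus strand), a partner of Bbs9 in the coat, the levels were 123 to 182 CPM (median 154) in the 8 rd10 TMB retinas, 79.8 to 139 CPM (median 103) in the 8 rd10 vehicle retinas, 229.9, 207, 222 and 245 CPM in the rd10 DR retinas, and 277, 305, 265 and 339 CPM in the WT retinas. All 3 rd10 groups lay below WT, with log2 fold changes of -0.96 ± 0.09 in rd10 TMB, -1.46 ± 0.13 in rd10 vehicle and -0.37 ± 0.07 in rd10 DR.

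Ttc8, also known as Bbs8, had 86.8 to 114 CPM (median 104) in the 8 rd10 TMB retinas, 66.6 to 96.8 CPM (median 81.1) in the 8 rd10 vehicle retinas, 144, 146, 153 and 161 CPM in the rd10 DR retinas, and 180.1, 185, 170.4 and 186 CPM in the WT retinas. No rd10 group overlapped WT, and the log2 fold changes were -0.83 ± 0.06 in rd10 TMB, -1.13 ± 0.08 in rd10 vehicle and -0.24 ± 0.05 in rd10 DR. Bbs2, Bbs1 and Bbs4 completed the coat with -1.01 ± 0.09, -0.80 ± 0.08 and -0.53 ± 0.06 in rd10 vehicle. The losses thus ran from -0.53 to -1.56 on the log2 scale among subunits of 1 complex. The chaperonin-like genes, whose proteins help the BBSome assemble, had smaller estimates, -0.34 ± 0.09 for Bbs10 (adjusted p = 0.0043) and -0.29 ± 0.14 for Mkks (adjusted p = 0.078). The Mkks value is uncertain, since 29.3% of its exon bases are shared with other genes, among them Slx4ip on the opposite strand.

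Arl6 had a pattern of its own among the groups. It had 129 to 194 CPM (median 149) in the 8 rd10 TMB retinas, 85.4 to 162 CPM (median 107) in the 8 rd10 vehicle retinas, 248, 219, 235 and 219 CPM in the rd10 DR retinas, and 179, 174, 155 and 194 CPM in the WT retinas. All rd10 DR retinas lay above all WT retinas, whereas the rd10 vehicle retinas spread widely and overlapped WT. Arl6 was higher in rd10 DR than in WT (log2 fold change 0.41 ± 0.06 (SE), adjusted p = 0.0011) and lower in rd10 vehicle than in WT (log2 fold change -0.59 ± 0.16 (SE), adjusted p = 0.005), and it did not pass the test in rd10 TMB (log2 fold change -0.21 ± 0.10 (SE), adjusted p = 0.09). In 1 fit over all 4 groups the adjusted p for rd10 DR was 0.0824. Of the 45 genes it was the 1 called in opposite directions in rd10 DR and rd10 vehicle against WT.

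Of the carrier group, 3 of 4 genes were lower in rd10 vehicle retinas. Unc119 (chr11:78343482-78349164, plus strand) encodes a carrier of myristoylated proteins such as the rod transducin alpha subunit. It had 735 to 1176 CPM (median 868) in the 8 rd10 TMB retinas, 488 to 869 CPM (median 644) in the 8 rd10 vehicle retinas, 1299, 1294, 1436 and 1421 CPM in the rd10 DR retinas, and 2208, 2050.4, 2079 and 2312 CPM in the WT retinas. Every rd10 group was separate from WT, at 42.2% of the WT mean in rd10 TMB, 30.8% in rd10 vehicle and 63.01% in rd10 DR. The test gave log2 fold change -1.24 ± 0.11 (SE), adjusted p = 4.7e-07 in rd10 TMB, log2 fold change -1.70 ± 0.12 (SE), adjusted p = 6.9e-08 in rd10 vehicle and log2 fold change -0.65 ± 0.05 (SE), adjusted p = 2.2e-05 in rd10 DR, the last being the strongest loss among the 45 genes in rd10 DR. Arl3 encodes the GTPase that releases such cargo in the cilium. Its levels were 132 to 191 CPM (median 148) in the 8 rd10 TMB retinas, 110.2 to 151 CPM (median 127) in the 8 rd10 vehicle retinas, 204, 190.3, 212 and 208 CPM in the rd10 DR retinas, and 288, 269, 258 and 315 CPM in the WT retinas. Again no rd10 group overlapped WT, and the log2 fold changes were -0.87 ± 0.09 in rd10 TMB, -1.13 ± 0.08 in rd10 vehicle and -0.45 ± 0.06 in rd10 DR.

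Arl13b (chr16:62793685-62847040, minus strand), the ciliary GTPase that activates Arl3, had 32.7 to 49.8 CPM (median 40.6) in the 8 rd10 TMB retinas, 19.5 to 35.5 CPM (median 28.3) in the 8 rd10 vehicle retinas, 63.4, 54.2, 65.8 and 63.9 CPM in the rd10 DR retinas, and 91.1, 99.8, 79.5 and 106 CPM in the WT retinas. No rd10 group overlapped WT. The rd10 TMB retinas held 42.7% of the WT mean (-1.23 ± 0.10 on the log2 scale), the rd10 vehicle retinas 30.1% (log2 fold change -1.73 ± 0.14 (SE), adjusted p = 1.6e-07) and the rd10 DR retinas 65.8% (-0.59 ± 0.08). Rp2, which turns Arl3 off and is mutated in X-linked retinitis pigmentosa, did not share the loss. It had 16.3 to 20.6 CPM (median 17.4) in the 8 rd10 TMB retinas, 16.6 to 19.2 CPM (median 17.5) in the 8 rd10 vehicle retinas, 18.4, 15.1, 16.8 and 16.5 CPM in the rd10 DR retinas, and 17.1, 15.3, 15.4 and 16.2 CPM in the WT retinas. All 4 groups overlapped. Rp2 was called higher in rd10 vehicle than in WT by 0.16 ± 0.06 (adjusted p = 0.036), but the adjusted p was 0.11, 0.0895 and 0.0593 without WT retina 2, 3 or 4, and 0.0588, 0.0601 and 0.0556 without rd10 vehicle retina 4, 6 or 8.

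**Figure D3:**
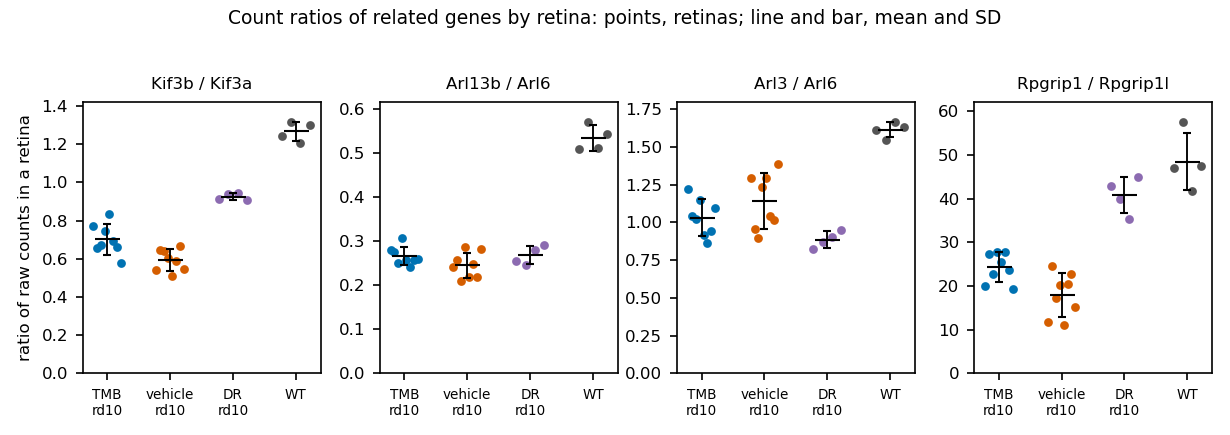
Ratio of raw counts of related cilium genes within each retina (y axis, from 0) for Kif3b to Kif3a, Arl13b to Arl6, Arl3 to Arl6 and Rpgrip1 to Rpgrip1l, by group (x axis). Points are retinas, and the line and bar give the mean and SD. For Kif3b to Kif3a, Arl13b to Arl6 and Arl3 to Arl6 all 20 rd10 retinas lie below all 4 WT retinas.

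Count ratios within a retina set the small GTPases against each other. The ratio of Arl13b to Arl6 was 0.267 ± 0.0209 in rd10 TMB, 0.246 ± 0.0287 in rd10 vehicle (SD, n = 8 each), 0.269 ± 0.0207 in rd10 DR and 0.535 ± 0.0292 in WT (SD, n = 4 each). The rd10 retinas of all 3 groups shared 1 range, 0.211 to 0.309, and lay apart from WT, at 0.51 to 0.572. The ratio of Arl3 to Arl6 was 1.03 ± 0.121 in rd10 TMB, 1.14 ± 0.184 in rd10 vehicle, 0.886 ± 0.0542 in rd10 DR and 1.61 ± 0.0505 in WT. It too was lower in each rd10 retina than in any WT retina, and its lowest mean was in rd10 DR. The ratio of Arl13b to Arl3 was 0.26 ± 0.0198 in rd10 TMB, 0.219 ± 0.0317 in rd10 vehicle, 0.303 ± 0.0124 in rd10 DR and 0.332 ± 0.0276 in WT.

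Among the IFT-B genes, whose proteins form the outward-moving train, 8 of 10 were lower in rd10 vehicle retinas than in WT under TMM scaling, by small amounts. Ift81, Ift74 and Ift88, 3 core subunits, were lower with log2 fold changes of -0.69 ± 0.07, -0.64 ± 0.07 and -0.64 ± 0.07, and the 5 others called lower lay between -0.26 (Ift80) and -0.17 (Ift20). Ift57 and Ift46 did not pass the test (-0.15 ± 0.08 and -0.01 ± 0.04). With the library size as the only scaling, which put the median over all genes tested at 0.22 on the log2 scale, 3 IFT-B genes were lower and 1 higher in rd10 vehicle, and the estimates of Ift20 (0.038), Ift27 (0.015), Ift52 (0.029) and Ift46 (0.20) turned positive. Ift27 also lost its call without WT retina 3 or 4 (adjusted p = 0.0992 and 0.0846). Of the 3 IFT-A genes, which serve the return trip, Ift122 and Ift43 were lower with log2 fold changes of -0.88 ± 0.08 and -0.66 ± 0.07, and Ift140 gave -0.02 ± 0.06 (adjusted p = 0.82), or 0.19 (adjusted p = 0.0088) without TMM scaling.

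Motor genes of 1 enzyme were called in opposite directions. Kif3a and Kif3b encode motor subunits that pair in kinesin-II. Kif3b (chr2:153291413-153333390, plus strand) had 84.7 to 111 CPM (median 91.6) in the 8 rd10 TMB retinas, 73.6 to 92.4 CPM (median 84.5) in the 8 rd10 vehicle retinas, 127, 121, 124 and 125 CPM in the rd10 DR retinas, and 155, 160.4, 142 and 161 CPM in the WT retinas. All rd10 retinas lay below WT, with the light-exposed ones lowest. The log2 fold changes against WT were -0.69 ± 0.07 in rd10 TMB, -0.88 ± 0.06 in rd10 vehicle and -0.30 ± 0.04 in rd10 DR (adjusted p = 3.4e-06, 3.8e-08 and 0.00087). Kif3a (chr11:53567379-53601967, plus strand) had 127 to 146 CPM (median 135) in the 8 rd10 TMB retinas, 133 to 149 CPM (median 142) in the 8 rd10 vehicle retinas, 139, 129, 131 and 138 CPM in the rd10 DR retinas, and 124, 122, 118 and 123 CPM in the WT retinas. Here every rd10 retina lay above every WT retina. The difference was small, 0.17 ± 0.04 in rd10 TMB, 0.22 ± 0.04 in rd10 vehicle and 0.16 ± 0.04 in rd10 DR (adjusted p = 0.005, 0.00027 and 0.018), and the rd10 DR call was lost without any 1 of the WT retinas or rd10 DR retina 4 (adjusted p between 0.0545 and 0.0656).

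The ratio of Kif3b to Kif3a counts put the 4 groups in order without any scaling. It was 0.702 ± 0.0797 in rd10 TMB, 0.593 ± 0.0571 in rd10 vehicle (SD, n = 8 each), 0.925 ± 0.018 in rd10 DR and 1.27 ± 0.0509 in WT (SD, n = 4 each). The rd10 TMB retinas (0.578 to 0.837) overlapped the rd10 vehicle retinas (0.508 to 0.666), and neither overlapped rd10 DR (0.908 to 0.944) or WT (1.21 to 1.32). The other kinesin-II genes, which were not among the 46, were higher, as Kif3a was. Kif3c, the alternative partner of Kif3a, was higher in rd10 vehicle than in WT (log2 fold change 0.37, adjusted p = 2.4e-06), as was Kifap3, the accessory subunit (0.17, adjusted p = 0.011). Markers of inner retinal neurons were higher there too, 9 of 9 for amacrine cells (median 0.53), 8 of 8 for ganglion cells (0.41), 9 of 10 for bipolar cells (0.75) and 5 of 6 for horizontal cells (0.70), and their part in the kinesin-II levels was not tested. Kif17, a separate kinesin that accompanies IFT, had 5.88 to 7.2 CPM (median 6.49) in the 8 rd10 TMB retinas, 4.85 to 6.82 CPM (median 6.29) in the 8 rd10 vehicle retinas, 7.45, 7.16, 5.74 and 6.5 CPM in the rd10 DR retinas, and 5.16, 6.53, 5.27 and 6.27 CPM in the WT retinas. All 4 groups overlapped, and no comparison of Kif17 passed the test under TMM scaling. Without it, Kif17 was called higher than in WT in rd10 TMB (0.34, adjusted p = 0.005) and rd10 vehicle (0.27, adjusted p = 0.029). Dync2h1, the dynein-2 heavy chain, was lower in rd10 vehicle (log2 fold change -0.27 ± 0.05, adjusted p = 0.00026), a call lost without TMM scaling.

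Mak was lower and Tulp3 higher in light-exposed rd10 retinas than in WT. Mak (chr13:41025008-41079706, minus strand) encodes a kinase that limits the length of the photoreceptor axoneme. It had 166 to 262 CPM (median 215) in the 8 rd10 TMB retinas, 94.6 to 196 CPM (median 153) in the 8 rd10 vehicle retinas, 407, 346, 363 and 377 CPM in the rd10 DR retinas, and 409, 439, 340.2 and 419 CPM in the WT retinas. The rd10 DR retinas overlapped WT and did not pass the test (log2 fold change -0.09 ± 0.07 (SE), adjusted p = 0.4), while the light-exposed retinas were separate from both, at 53.3% of the WT mean in rd10 TMB (log2 fold change -0.90 ± 0.12 (SE), adjusted p = 2.4e-05) and 36.8% in rd10 vehicle (log2 fold change -1.44 ± 0.18 (SE), adjusted p = 7e-06). Tulp3 (chr6:128321161-128355851, minus strand) encodes the adaptor through which IFT-A brings receptors into cilia. Its levels were 43.7 to 65.3 CPM (median 48.2) in the 8 rd10 TMB retinas, 46.9 to 55.9 CPM (median 50.3) in the 8 rd10 vehicle retinas, 43.4, 43.2, 40.9 and 38.4 CPM in the rd10 DR retinas, and 24.8, 24.4, 28.1 and 21.2 CPM in the WT retinas. Every rd10 retina lay above every WT retina, at 203% of the WT mean in rd10 TMB (log2 fold change 1.03 ± 0.10 (SE), adjusted p = 1.4e-06), 205% in rd10 vehicle (log2 fold change 1.04 ± 0.07 (SE), adjusted p = 5.7e-08) and 168% in rd10 DR (log2 fold change 0.77 ± 0.09 (SE), adjusted p = 0.00017). Its photoreceptor relative Tulp1 was lower in rd10 vehicle than in WT (-1.69, adjusted p = 8e-07). Tulp3 was higher together with the markers of most cell types other than rods. In rd10 vehicle against WT, 9 of 9 Müller glia, 11 of 11 microglia and 6 of 7 vessel markers were higher, beside the inner neuron markers given above. The sum of 9 Müller glia markers was 7020.3 to 9103 CPM in rd10 TMB, 8109.8 to 8989 CPM in rd10 vehicle retinas, 5519 to 5872 CPM for dark-reared retinas and 3787 to 5331 CPM in WT, and that of 11 microglia markers was 332 to 452 CPM in rd10 TMB retinas, 358 to 411 CPM in rd10 vehicle retinas, 240.5 to 323 CPM in the rd10 DR retinas, and 72.9 to 107 CPM in WT. Their part in the Tulp3 level was not tested.

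A wider list of 62 cilium genes outside the 46 gave a like picture in rd10 vehicle against WT. Of these, 44 were lower and 9 higher, where 30.2% of all genes tested were lower and 31.6% higher, and the median was -0.52 on the log2 scale. The axonemal microtubule genes of the outer segment, Rp1 and Rp1l1, stood at -2.25 and -2.06 on that scale, and Cep164, a distal appendage gene of the basal body, -1.70. Bbip1, the smallest BBSome subunit, gave -0.45, and the IFT-A genes Wdr19, Wdr35 and Ttc21b gave -0.47, -0.43 and -0.48. Anks6 and Nek8, which encode proteins of the inversin compartment, were higher, at 0.62 and 0.66, while Invs, which encodes inversin, gave 0.0099 (adjusted p = 0.93). Pde6d, the carrier of prenylated proteins, was lower at -0.74, and Unc119b, the relative of Unc119, gave -0.060 (adjusted p = 0.35). Of the 8 motile cilia markers tested, 5 were higher and 2 lower in rd10 vehicle than in WT (median 0.52). Their sum over 9 genes, in which the most abundant were Dnah9 (at most 48.2 CPM) and Ccdc39 (at most 31.7 CPM), amounted to 55.5 to 71.0 CPM in rd10 TMB, 44.7 to 60.9 CPM in rd10 vehicle retinas, 72.3 to 85.8 CPM for dark-reared retinas and 73.0 to 88.0 CPM in WT. Markers of cones, 10 of which had rows, summed to 2630.2 to 3271 CPM in rd10 TMB, 2587 to 3154 CPM in rd10 vehicle retinas, 2592 to 3188 CPM for dark-reared retinas and 2060.3 to 2313 CPM in WT. In every rd10 retina the cone sum lay above that of every WT retina, and Gnb3 was its most abundant gene (at most 1020 CPM). By gene the cone markers were mixed. Of 10 tested against WT, 6 were higher and 2 lower in rd10 vehicle, 6 and 1 in rd10 TMB, and 4 and 1 in rd10 DR.

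Dark-reared rd10 retinas, younger than WT and never in light, had fewer and smaller differences. The group held 4 retinas and rd10 vehicle 8, so a difference of the same size is less readily called in rd10 DR. In rd10 DR against WT, 19 of 45 genes were lower and 3 higher, where 10.2% of all genes tested were lower and 14.5% higher, and the median log2 fold change of the 45 was -0.16 (rod markers -0.77, all 19 lower). Unc119, Arl13b, Bbs9 and Fam161a led the losses, between -0.65 and -0.57, and Tulp3, Arl6 and Kif3a were the higher genes. All 19 genes lower in rd10 DR were also lower in rd10 vehicle, which shares its WT samples with that comparison. A further 15 were lower in rd10 vehicle and not called in rd10 DR, among them Mak (-0.09 in rd10 DR), Bbs5 (-0.16), Cc2d2a (-0.16), Ift43 (-0.03) and Nphp4 (0.05). The rd10 DR calls of Cep290 and Rpgrip1l were lost in most fits that left out 1 retina (adjusted p up to 0.11 and 0.111), and that of Tmem67 without WT retina 2 or 4 or rd10 DR retina 1 or 2 (0.056 to 0.0668). A single fit over all groups called 16 lower.

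The light-exposed groups were also set against rd10 DR directly. In these comparisons light, age and the electroretinogram change together, in rd10 TMB the drug diet as well, and they cannot be told apart. Markers of other tissues moved here as well, and their part in the cilium levels was not tested. Of 7 pigment epithelium markers, 6 were higher than in rd10 DR in both rd10 TMB (median 3.07) and rd10 vehicle (median 1.76). Erythrocyte markers, 5 genes, summed to 9.12 to 100.2 CPM in rd10 TMB, 11.7 to 30.7 CPM in rd10 vehicle, 45.8 to 73.6 CPM among dark-reared retinas and 8.66 to 29.4 CPM in WT, with 5 of 5 lower in rd10 vehicle than in rd10 DR (median -1.74) and 5 of 5 higher in rd10 DR than in WT (median 1.62). In rd10 vehicle against rd10 DR, 35 of 45 genes were lower and 1 (Tulp3) higher, where 20.6% of all genes tested were lower and 21.9% higher, with a median log2 fold change of -0.42. The largest differences were those of Fam161a (-1.49 ± 0.15), Rpgrip1 (-1.48 ± 0.18), Mak (-1.34 ± 0.17) and Bbs5 (-1.32 ± 0.12). In rd10 TMB against rd10 DR, 26 were lower and 1 (Tulp3) higher, where 11.4% of all genes tested were lower and 11.6% higher, with a median of -0.28. Mak and Bbs5, near WT in rd10 DR, were -0.81 ± 0.11 and -0.86 ± 0.08 there. Arl6, raised in rd10 DR, was lower in rd10 TMB (-0.62 ± 0.09) and rd10 vehicle (-0.98 ± 0.15) than in rd10 DR. The Tulp3 call in rd10 TMB (0.26 ± 0.08, adjusted p = 0.035) was lost without any 1 rd10 DR retina or rd10 TMB retina 7, with an adjusted p between 0.0502 and 0.122.

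In rd10 TMB against WT, 33 of 45 genes were lower and 2 (Tulp3 and Kif3a) higher, where 24.9% of all genes tested were lower and 27.2% higher. The median log2 fold change of the 45 was -0.40, beside -1.58 for the rod markers. The carrier group (median -1.05) and the BBSome (median -0.79) were again lowest by role, IFT-B had a median of -0.18 (-0.014 without TMM scaling), and of the 4 motors 2 were lower and 1 higher.

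**Figure D4:**
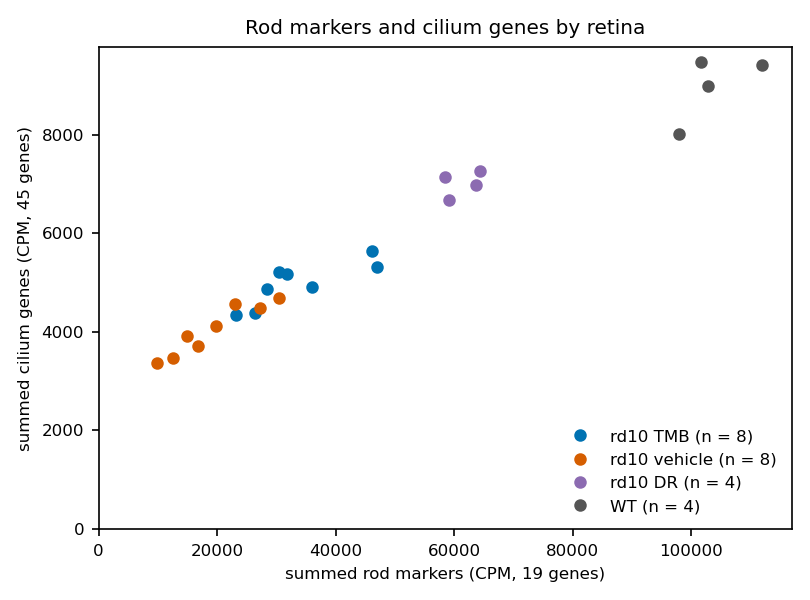
Summed level of the 45 cilium genes (y axis, CPM) against the summed level of 19 rod markers (x axis, CPM), 1 point per retina, for rd10 TMB, rd10 vehicle, rd10 DR and WT. Unc119 and Rpgrip1 weigh most in the summed cilium level. The rd10 TMB and rd10 vehicle retinas overlap on both axes. WT lies at the upper right, and rd10 vehicle retinas 5 and 1 lie at the lower left, with 9890.3 and 12503 CPM of rod markers and 3374 and 3466 CPM of cilium genes.

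The drug diet was compared with the base diet in light-exposed rd10 retinas. In rd10 TMB against rd10 vehicle, 15 of 45 cilium genes were higher and 0 lower, where 3.37% of all 20251 genes tested were higher and 2.32% lower. The estimates were positive for 38 of 45 genes (84.4%; 50.1% over all genes tested), and their median was 0.17 on the log2 scale, while 17 of 19 rod markers were higher with a median of 0.76. All 15 genes were among the 35 that were lower in rd10 vehicle than in WT, a comparison that shares the rd10 vehicle samples. By role, 6 of 8 genes of the BBSome group, 6 of 12 transition zone genes, 2 of 4 genes of the carrier group and Mak were called, and 0 of 10 IFT-B, 0 of 3 IFT-A and 0 of 4 motor genes. With an unadjusted p, 3 IFT-B genes, 1 IFT-A gene and 1 motor gene were under 0.05. With the library size as the only scaling, 0 of 10 IFT-B, 0 of 3 IFT-A and 0 of 4 motor genes were called as well. The split by role did not hold in every fit. DESeq2 called Ift74 higher (adjusted p = 0.036). In 1 edgeR fit over all 4 groups Ift74, Ift122 and Kif3b were called higher (adjusted p = 0.036, 0.043 and 0.034).

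Fam161a had the largest estimate (log2 fold change 0.61 ± 0.13 (SE), adjusted p = 0.025). Its 8 rd10 TMB retinas held 98.1 to 149 CPM (median 132) and its 8 rd10 vehicle retinas 53.5 to 106 CPM (median 86.9), so that 6 of the rd10 TMB retinas lay above all rd10 vehicle ones. Bbs9 (log2 fold change 0.55 ± 0.11 (SE), adjusted p = 0.023), Arl13b (0.50 ± 0.12, adjusted p = 0.026), Bbs7 (0.49 ± 0.11, adjusted p = 0.025), Bbs5 (0.46 ± 0.11, adjusted p = 0.027) and Unc119 (0.45 ± 0.11, adjusted p = 0.033) followed, with the values by retina given above. Cc2d2a had the smallest adjusted p of the 15 (log2 fold change 0.29 ± 0.06 (SE), adjusted p = 0.023), and Ttc8 (0.30 ± 0.07), Nphp4 (0.31 ± 0.08) and Tmem67 (0.27 ± 0.07) had smaller steps. The other genes called were Mak (0.53), Lca5 (0.38), Cep290 (0.32), Bbs2 (0.26) and Bbs4 (0.17). Rpgrip1 (log2 fold change 0.53 ± 0.16 (SE), adjusted p = 0.052), Arl3 (log2 fold change 0.26 ± 0.08 (SE), adjusted p = 0.053), Kif3b (log2 fold change 0.19 ± 0.06 (SE), adjusted p = 0.072) and Arl6 (log2 fold change 0.37 ± 0.13 (SE), adjusted p = 0.094) missed the threshold. Tulp3 and Kif3a, the genes raised in rd10, had estimates near 0 between the diets (-0.01 ± 0.07 and -0.05 ± 0.03). All 45 genes overlapped between the 2 groups, a count that was not made over all genes tested.

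**Figure D5:**
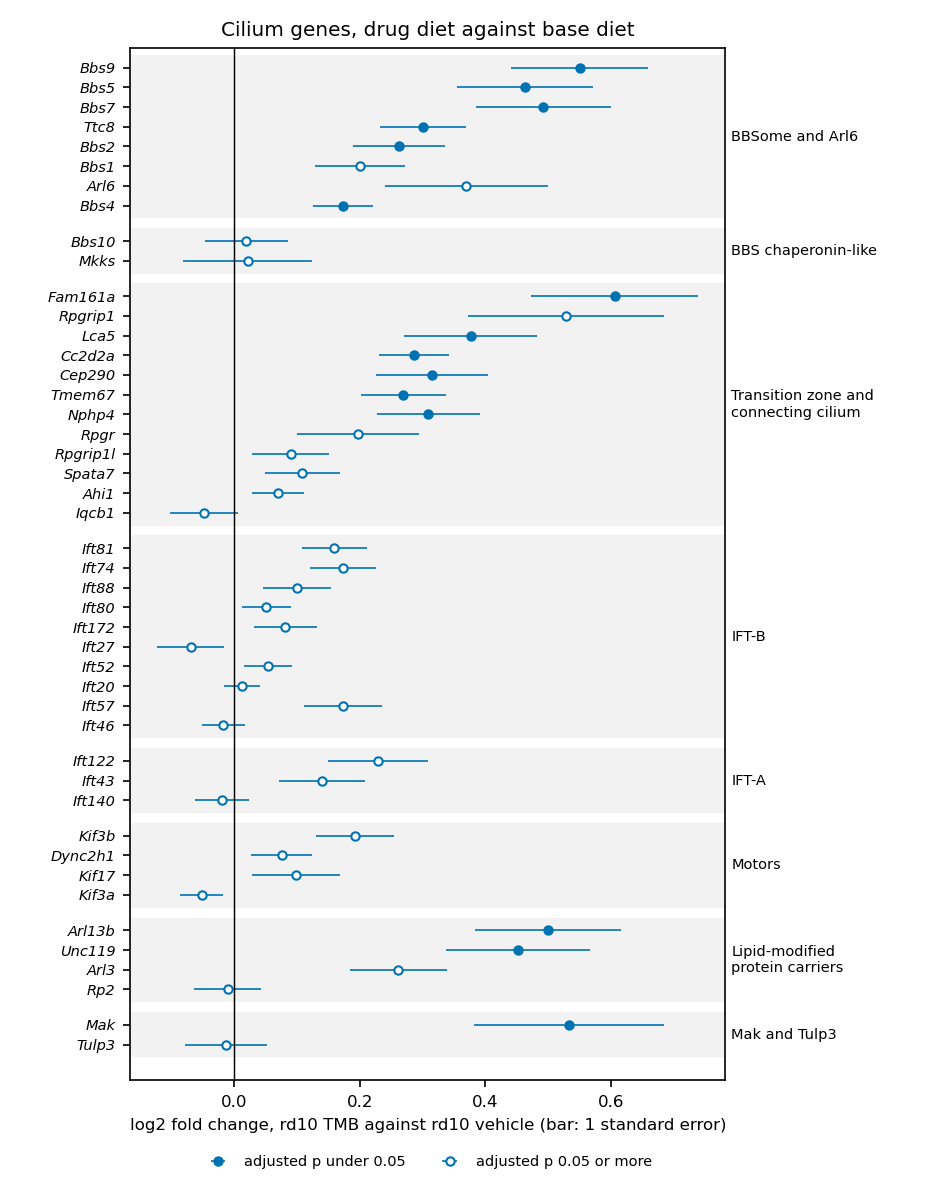
Log2 fold change of rd10 TMB against rd10 vehicle (x axis) for the 45 cilium genes by role (y axis). Points are edgeR estimates, bars are 1 standard error, and filled points have an adjusted p under 0.05. The 15 filled points lie between 0.17 (Bbs4) and 0.61 (Fam161a), and none belongs to the IFT-B, IFT-A or motor genes.

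The number of calls between the diets depended on which retinas were in the fit, for the cilium genes as for all genes. The estimates of the 15 genes called stayed positive in every fit, with medians between 0.31 and 0.49 on the log2 scale. The adjusted p of the 15 lay between 0.023 and 0.045. The number of cilium genes higher was 0 without rd10 vehicle retina 1 or 5, the retinas with the lowest rod marker sums. The number was 6, 7 and 8 without rd10 vehicle retinas 8, 4 and 6. It was 2 and 5 without rd10 TMB retinas 5 and 4, and 8, 9, 8 and 9 without rd10 TMB retinas 1, 2, 6 and 7. Of these, rd10 TMB retina 1 had the highest rod marker sum (46917 CPM) and retina 5 had 46192 CPM. Without rd10 vehicle retina 2, 3 or 7 or rd10 TMB retina 3 the number was 19, and without rd10 TMB retina 8 it was 20. All 15 genes kept their call in these fits. Over all genes tested, the 683 higher calls became 1 and 2 without rd10 vehicle retina 1 or 5, 62 without rd10 TMB retina 5 and 136 without rd10 TMB retina 4. They became 943, 693 and 962 without rd10 vehicle retinas 2, 3 and 7, and 810 and 926 without rd10 TMB retinas 3 and 8. At an unadjusted p under 0.05 there were 24 genes with all retinas and 24 without rd10 vehicle retina 1 or 5. Of the 45 genes, DESeq2 called 19 higher (1058 of all genes), 1 fit over all 4 groups 21 (1027) and the library size without TMM 17 (656). The fit without a filter called 11 (507), that with title prefix as a term 13 (544) and that with sex as a term 14 (688). Within the retinas whose titles begin with RD10, and within those beginning with RD9, a prefix the sources do not explain, 0 were called and 15 and 23 had an unadjusted p under 0.05. Over all genes, 7 were higher and 5 lower in the RD10 retinas, and 0 and 0 in the RD9 retinas. Pigment epithelium markers, 7 of which had rows, summed to 553, 764 and 839.8 CPM in rd10 TMB retinas 2, 3 and 4, to 151 to 207 CPM in the 5 other rd10 TMB retinas and to 105 to 265 CPM in rd10 vehicle. Without those 3 retinas, left out after the data were seen, 0 of the 45 genes were called and 26 had an unadjusted p under 0.05, while of all 20619 genes tested 1 was higher and 2 lower. The diet difference did not pass a test of dependence on sex for any of the 45 genes or any of the 20251 tested (edgeR; 0 of 45 and 776 of all genes with an unadjusted p under 0.05).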

How the data were processed

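RNA sequencing was analysed from 24 retinas of separate mice. The authors selected polyadenylated RNA, prepared unstranded libraries, and used Trimmomatic (trimming), STAR (alignment to GRCm38) and HTSeq (counting). The deposited table holds raw counts per gene, and its columns of the authors' fold changes and adjusted p-values were not used. The sources differ on whether reads were single or paired. The number of columns of values matched to no sample was 0. Duplicate libraries were looked for, and none was found (chi-square per gene 6.52 to 89.5 over 68 pairs within groups).

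Every comparison had its own fit of the 2 groups in edgeR 4.0.16 in R 4.3.3 (default expression filter, TMM, quasi-likelihood F test, Benjamini-Hochberg over all genes tested, threshold 0.05), and the fit was tested on simulated data. Standard errors are the absolute log2 fold change over the square root of F. Alternatives were DESeq2 1.42.0, the library size without TMM, no filter, 1 fit over all groups, sex or title prefix as a term, prefixes apart, and each retina left out. Values by retina are given for the members with the largest changes against WT (up to 8 in each direction in rd10 vehicle, up to 4 in rd10 DR), the 10 with the smallest adjusted p between the diets, and the paralogues. Other members are given by role. The members and lists were chosen with earlier results of these data known. Positions come from GENCODE M21 on GRCm38, where 10 of 45 members share exon bases with another gene, 1 of them over 10%. Retinas are numbered in the order of their deposit.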

Additional observations from a re-analysis of the deposited data

Results flagged for a closer look

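In 5 of 180 groups of values (45 genes in 4 groups) 1 retina lay farther from the rest than Dixon's 95% limit allows, where chance flags about 1 in 20. Tulp3 was at 65.3 CPM in rd10 TMB retina 2, with the next highest at 51.2 CPM. Ift172 was at 113 CPM in rd10 vehicle retina 2, with the next at 99.7 CPM. Among rd10 DR retinas, Bbs9 was lowest in retina 1 at 107 CPM (next 121 CPM), Ift57 was highest in retina 1 at 39.6 CPM (next 38.3 CPM) and Ift20 was highest in retina 2 at 74.9 CPM (next 69.3 CPM).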

How the results depend on the processing

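With the library size as the only scaling, which moved the median over all genes tested, on the log2 scale, to 0.22 in rd10 vehicle, 0.17 in rd10 TMB and 0.092 in rd10 DR against WT, the numbers of members higher were 8, 8 and 5 in these comparisons, 5 in rd10 vehicle and 2 in rd10 TMB against rd10 DR, and the numbers lower were 27, 25, 14, 28 and 24 in the same order. The members' medians were then -0.43, -0.23, -0.069 and, in rd10 vehicle against rd10 DR, -0.32. Estimates turned positive for Ahi1 (0.18), Ift20 (0.038), Ift27 (0.015), Ift46 (0.20), Ift52 (0.029) and Ift140 (0.19) in rd10 vehicle against WT, and for Ift20 (0.015) and Ift46 (0.14) in rd10 TMB against WT. Over the alternatives for single members, 4756 kept direction and side of the threshold, 281 lost the call, 85 gained one and 8 turned. In rd10 TMB against rd10 vehicle the members higher were 0 in RD10 retinas alone, 0 in RD9 retinas alone (the RD8 prefix marks 1 rd10 vehicle retina and gave no value), 0 without rd10 TMB retinas 2, 3 and 4 (chosen after seeing the data), and 0 to 20 with 1 retina left out. In rd10 TMB against rd10 DR they were 0 to 1. In the other comparisons, leaving out 1 retina gave 34 to 37 lower in rd10 vehicle, 30 to 35 in rd10 TMB and 16 to 25 in rd10 DR against WT. The cause of these shifts was not tested. No paired analysis was possible because the animal numbers in the titles do not match retinas of one group to those of another. Title prefix as a term gave 13 members higher between the diets. The member with the fewest counts was Kif17, with 288 in its lowest library, so its estimates are the least precise by counting error.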
